A study of Sus scrofa with 4 samples.

Results

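The enzymes described here build glycosaminoglycans and the sugar chains of glycoproteins and glycolipids. The rule that chose them reads gene symbols and no measured value, although earlier results of these data were known when it was written; it takes the sulfotransferases, glycosyltransferases and precursor-making enzymes with a probeset that the platform annotation gives to 1 gene alone. The choice gave 39 genes, with 59 probesets, out of 6765 named genes on the array, and each gene was read from its brightest probeset. RNA came from confluent cultures of dermal fibroblasts grown out of wound biopsies, 2 cultures from deep wounds and 2 from shallow wounds on the backs of 2 Duroc pigs, biopsied 20 weeks after wounding. Each pig gave 1 deep and 1 shallow culture, and both depths shared the same medium with serum. The labels call the cells dermal cone fibroblasts and do not give the animals' age or the passage of the cells; cultured cells stand for the wound only as far as they keep its expression in culture. Unwounded skin was not analysed here, so the comparison is between wound depths only.

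Glycosaminoglycans are long chains of repeating sugar pairs attached to the core proteins of proteoglycans. Assembly starts with a short linkage sugar sequence on a serine, continues as chondroitin or heparan sulfate by addition of alternating sugars, and ends with epimerases and sulfotransferases that set the sulfation pattern. Sulfotransferases all draw on the activated sulfate donor PAPS, and the backbone enzymes on nucleotide sugars. In skin, decorin and versican carry chondroitin or dermatan sulfate, which bears on collagen fibril spacing and water binding, and syndecans carry heparan sulfate, which binds growth factors. The other enzymes here act on N-glycans, mucin-type O-glycans and glycolipids in the Golgi and decide how those chains are branched, lengthened and capped.

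No member passed the test between depths, and most measured differences were under 1.5-fold; with 2 cultures a depth this does not show that the depths were alike. Among the 39 members, 30 were bright enough to be tested, and 0 of these had a limma adjusted p under 0.05 over 14399 probesets, where 0.398% of the 5272 tested genes and 0.34% of the probesets did. An unadjusted p under 0.05 was found for PAPSS2 and ST6GAL1, higher in deep cultures, and for B3GNT5, lower, which is 3 of 29 members (10.3%), against 15.5% of all tested genes (7.40% higher and 8.06% lower) and 13.9% of the probesets. The count leaves out B3GALNT1, which passed the brightness filter through 1 shallow array and was below background on both deep arrays. With it the count is 4 of 30 (13.3%). The shares of all tested genes, here and below, leave out no gene for being below background. The counts over all 30 members are therefore the like comparison. Without the pig as block the number of called members was also 0. The median log2 difference, deep minus shallow, was -0.06 for the 30 members and -0.04 for all tested genes, and 25 of the 30 differed by less than 1.5-fold, as did 74.1% of all tested genes. Among the 29 members without B3GALNT1 the median was -0.03, and 1, B3GNT5, differed by at least 2-fold. With B3GALNT1 it was 2 of 30 (6.67%), against 9.12% of all tested genes. The mean difference was above 0 for 14 of the 30 members (46.7%) and for 46.4% of all tested genes.

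The arrays also differed in control and marker signals. Hybridization controls had a geometric mean signal of 1579 and 3880 on the deep arrays, against 1145 and 1326 on the shallow arrays. The 28S rRNA probesets averaged 3462 and 7621 on the deep arrays, against 1351 and 1836 on the shallow arrays. For actin, the probeset near the 3' end was brighter than the one near the 5' end by a factor of 3.28 and 6.10 on the deep arrays of pig 1 and pig 2, against 1.96 and 2.41 on the shallow arrays. The summed signal of 11 epithelial markers was 401 and 262 on the deep arrays, against 6298 on the shallow array of pig 1 and 338 on that of pig 2. CDH1, the epithelial cadherin, read 17.7 and 7.15 on the deep arrays, against 1084 and 10.7 on the shallow arrays. All 11 measured fibroblast markers passed the filter, and each was brighter on both deep arrays than on either shallow one. Of these, 0 passed the adjusted test. Their sums were 61004 and 95430 on the deep arrays, against 38563 and 44778 on the shallow arrays. The 9 measured proliferation markers, 2 of them past the adjusted test, were all dimmer on both deep arrays. Their sums were 1544 and 1643 there, against 11857 and 4037 on the shallow arrays. CENPF, 1 of the 2, was below background on the deep array of pig 2, and CCNA2 on both deep arrays. Among all tested genes, 23.7% were brighter on both deep arrays, 28.4% dimmer on both, and 0.398% passed the adjusted test. Sums of the 6 endothelial markers were 318 and 374 on the deep arrays, against 739 and 249 on the shallow arrays. Of the 739 on the shallow array of pig 1, PECAM1 gave 601 and CLDN5 114. CDH5, KDR, TEK and VWF were below background on that array. The sums of the 4 leukocyte, 3 melanocyte and 2 Schwann cell markers were at most 138 on any array. In cultures, fewer cells of a type and less RNA per cell cannot be told apart. The part of these array differences in the member values was not tested, but where leaving out the shallow array of pig 1 turned a member's sign, that value is given beside it.

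**Figure D1:**
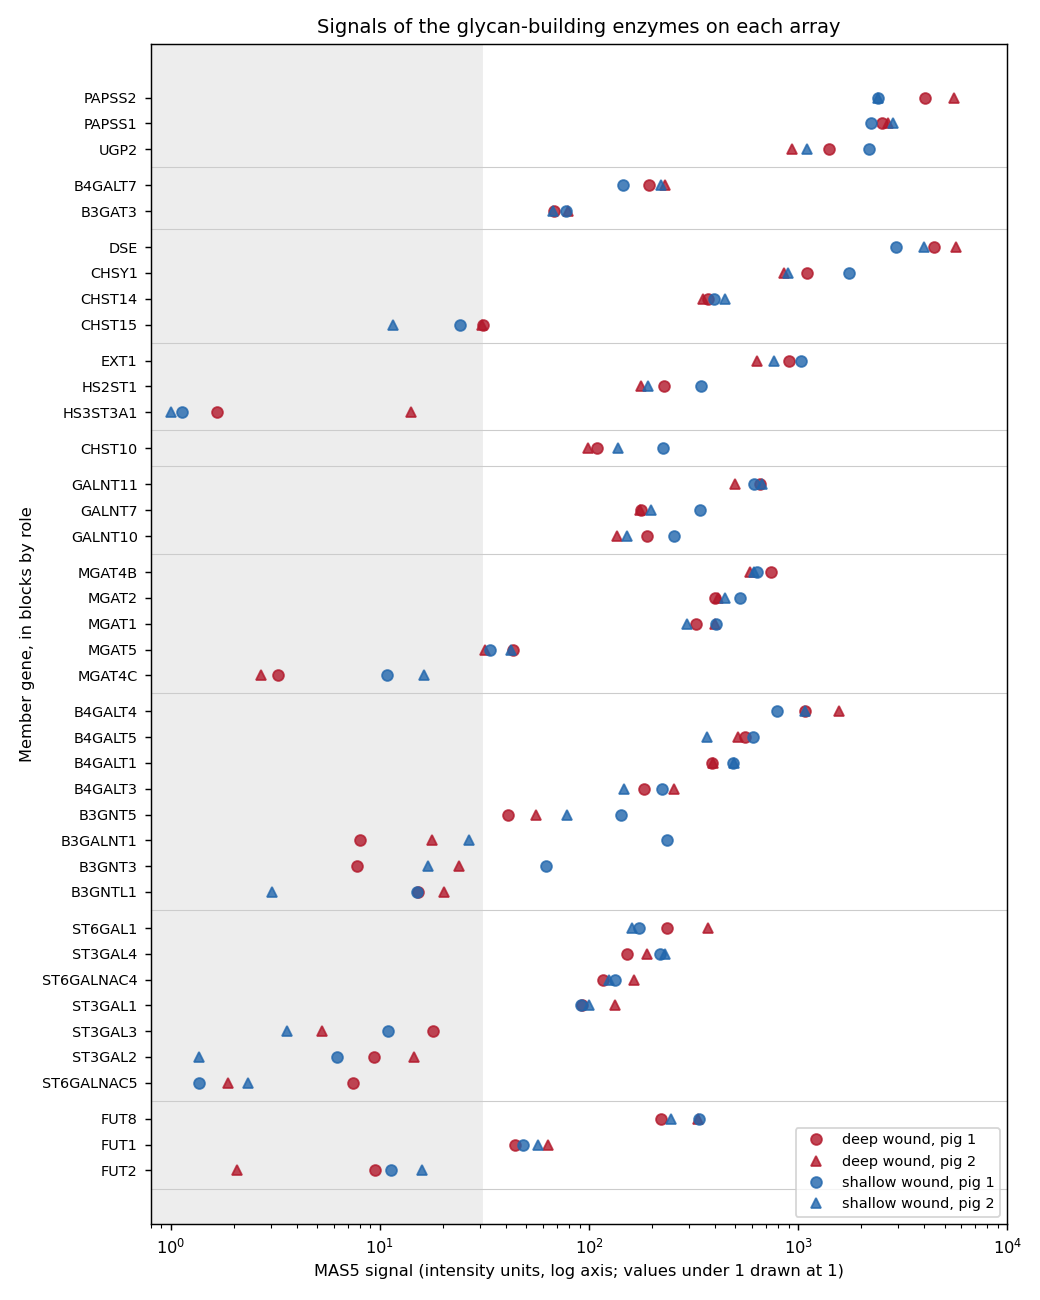
MAS5 signal of all 39 members on each of the 4 arrays (log axis, intensity units), in blocks by role; red symbols are deep and blue symbols shallow cultures, circles pig 1 and triangles pig 2. The grey band runs up to 30.9, the highest signal of any control for an absent transcript; DSE, PAPSS2 and PAPSS1 lie at the bright end, and FUT2, MGAT4C, B3GNTL1, HS3ST3A1 and 3 sialyltransferases lie inside the band on every array.

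Brightness varied widely among the members. The 30 tested members had geometric mean signals between 30.8 and 4136 intensity units, with a median of 253, and 6 were at 1000 or more: DSE, PAPSS2, PAPSS1, UGP2, CHSY1 and B4GALT4. Signals of different probesets depend on their probes as well as on the RNA, so these numbers do not rank the genes by abundance. The remaining 9 members stayed under the filter at a mean signal of 27.1 and were not tested. B3GALNT1 lay just inside that limit, at 30.8, and CHST15 and B3GNT3 just outside, at 22.7 and 21.1. Of the 9, ST3GAL2, ST3GAL3, ST6GALNAC5 and HS3ST3A1 were below the highest control for an absent transcript on all 4 arrays, and the other 5, CHST15, B3GNT3, B3GNTL1, MGAT4C and FUT2, on 2 or 3 arrays. The rule's families CHPF, HS6ST, NDST, EXTL and XYLT, and the genes UGDH and GLCE, had no such probeset and were not analysed here.

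Members agreed between pigs about as often as other genes. The deep minus shallow difference had the same sign in both pigs for 19 of 30 members, 6 higher and 13 lower in deep cultures. The same held for 64.0% of all tested genes, 29.9% higher and 34.0% lower. Without B3GALNT1 the lower members were 12 of 29 (41.4%). Both deep arrays lay above both shallow arrays for 3 members, PAPSS2, DSE and ST6GAL1, with a background of 23.7%. Both deep arrays lay below both shallow arrays for 8 members, CHST14, CHST10, GALNT7, MGAT2, B4GALT1, B3GNT5, B3GALNT1 and ST3GAL4, with a background of 28.4%; without B3GALNT1 they are 7 of 29 (24.1%). Without the shallow array of pig 1, 7 members had both deep arrays above the shallow array that was left and 10 below it, where 33.4% and 38.6% of all tested genes did.

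**Figure D2:**
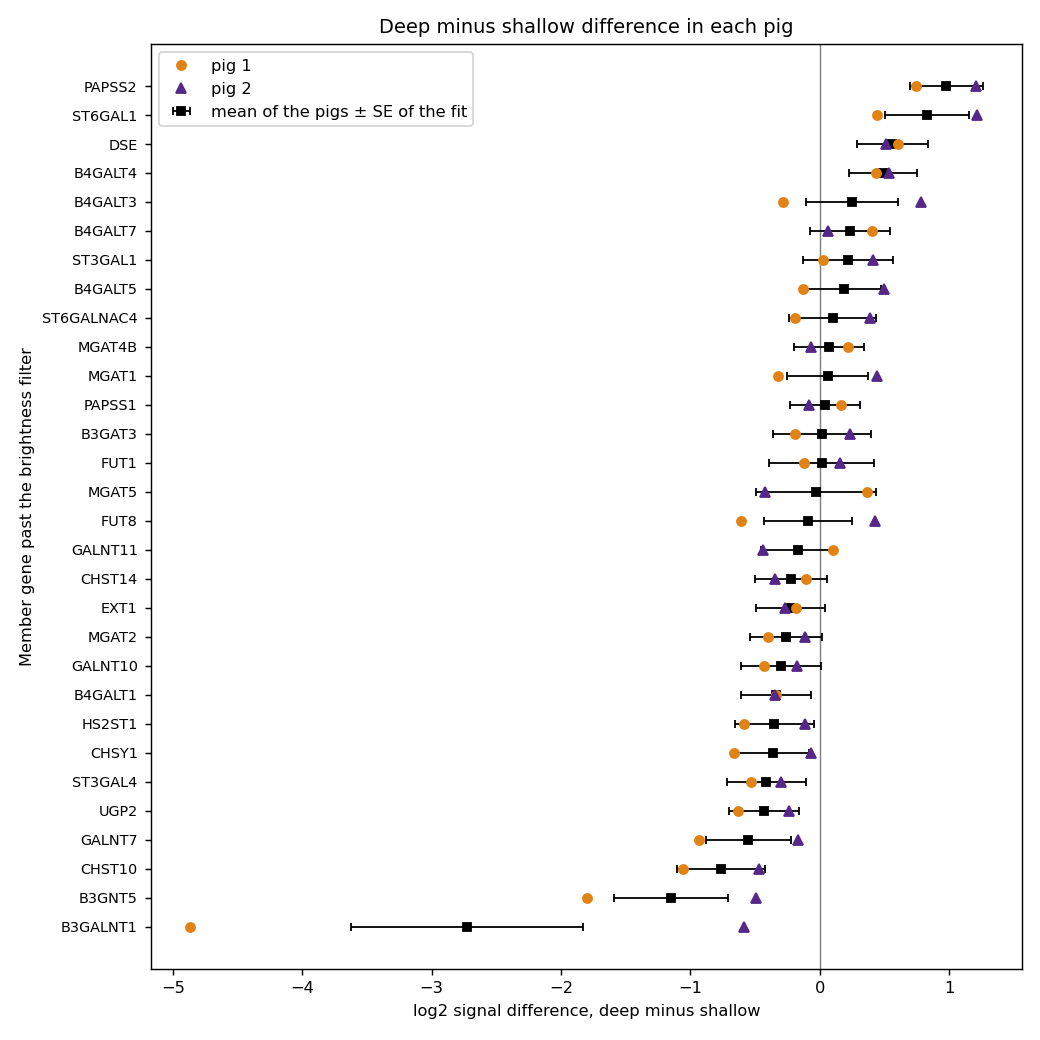
Deep minus shallow difference in log2 signal for the 30 tested members, sorted by the mean; orange circles are pig 1, purple triangles pig 2, black squares the mean with the SE of the limma fit. PAPSS2 (0.98) is at the top and B3GNT5 (-1.15) is the lowest of those above background on every array; B3GALNT1, at the bottom, is drawn from deep signals below background, and 11 members have the pigs on opposite sides of 0.

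Differences between pigs were not small beside those between depths, though the measures are unlike. Each difference between pigs is from 1 pair of arrays, while that between depths is the mean of 2 pairs, which varies less. Between pigs, the median absolute log2 difference over the 30 members was 0.39 for deep and 0.44 for shallow cultures, while between depths it was 0.25. For all tested genes the same medians were 0.27, 0.32 and 0.32. The difference between depths exceeded both differences between pigs for 9 members (30.0%) and for 34.5% of all tested genes. The highest signal was on the shallow array of pig 1 for 43.3% of the members and 37.3% of all tested genes, on the deep array of pig 2 for 33.3% and 31.4%, and on the deep array of pig 1 for 6.67% and 15.4%.

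**Figure D3:**
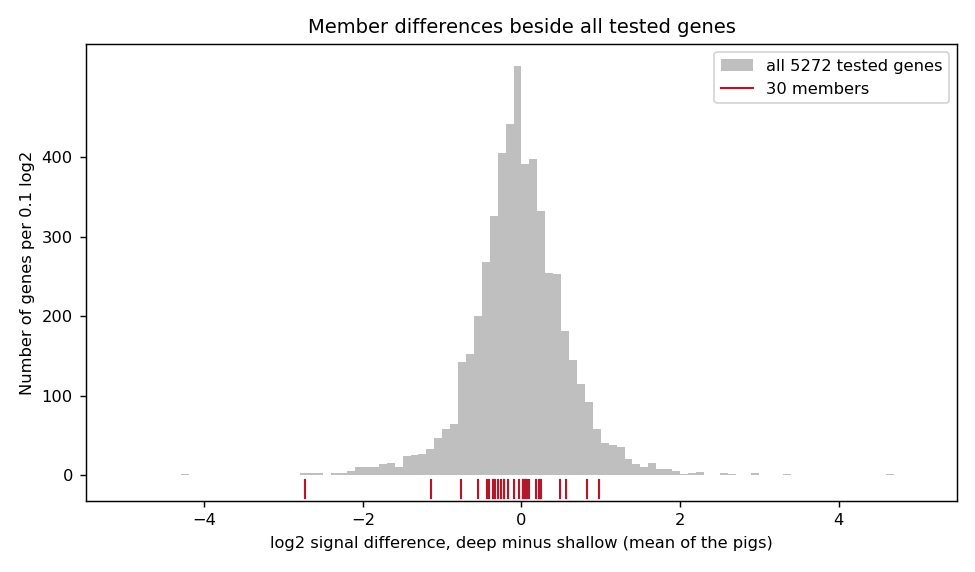
Histogram of the mean deep minus shallow log2 difference for all 5272 tested genes (grey, number of genes per bin) with the 30 members as red ticks under the axis. Apart from B3GALNT1, whose tick at the far left rests on deep signals below background, the members' ticks lie between -1.15 and 0.98, most of them within the central peak.

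Among the enzymes that supply precursors, the sulfate donor enzyme PAPSS2 had the largest positive difference of any tested member. PAPSS2 and its paralog PAPSS1 each make PAPS from sulfate and ATP; loss of PAPSS2 causes skeletal dysplasia in humans and brachymorphism in mice. PAPSS2 had signals of 4055 and 5565 on the deep arrays of pig 1 and pig 2, against 2413 and 2408 on the shallow arrays. Both deep arrays were above both shallow ones, and the shallow arrays were nearly equal. Its means were 4810 ± 1068 in deep and 2411 ± 3.53 in shallow cultures (SD, n = 2 arrays each), a log2 difference of 0.98 ± 0.28 (SE; limma, unadjusted p = 0.00883, adjusted p = 0.188), or 1.97-fold, and the 95% interval of the fold was 1.25 to 3.10. That difference was larger than 95.4% of those of all tested genes. It was 0.75 in pig 1 and 1.21 in pig 2, and leaving out the shallow array of either pig gave 0.98. Leaving out the deep array of pig 2 gave 0.75.

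PAPSS1 had signals of 2501 and 2677 on the deep arrays, against 2227 and 2837 on the shallow arrays. The depths overlapped, and the log2 difference was 0.04 ± 0.27 (limma, adjusted p = 0.968), with a 95% interval of the fold from 0.667 to 1.59; leaving out the shallow array of pig 1 gave -0.13. The PAPSS2 difference exceeded that of PAPSS1 by 0.58 on the log2 scale in pig 1 and by 1.29 in pig 2; this contrast was seen in the values first and has no test. UGP2 makes UDP-glucose, the parent of UDP-glucuronic acid. It had 1405 and 931 on the deep arrays, against 2172 and 1098 on the shallow arrays. The shallow array of pig 1 stood highest and the pairs overlapped, with a log2 difference of -0.43 ± 0.27 (adjusted p = 0.535); leaving out that array gave 0.06.

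The linkage region, built on the serine before any chain can form, was represented by 2 enzymes. B4GALT7 adds the first galactose and B3GAT3 the closing glucuronic acid. B4GALT7 read 193 and 230 on the deep arrays, against 146 and 220 on the shallow arrays, with overlap and a log2 difference of 0.23 ± 0.31 (adjusted p = 0.796); leaving out the shallow array of pig 1 gave -0.06. B3GAT3 read 68.0 and 79.1 on the deep arrays, against 77.5 and 67.4 on the shallow arrays. Its pigs went in opposite directions, and the log2 difference was 0.02 ± 0.38 (adjusted p = 0.987).

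In the chondroitin and dermatan sulfate branch, DSE was the brightest member of all and was higher on both deep arrays. DSE is an epimerase that turns glucuronic into iduronic acid, the step that makes dermatan sulfate out of chondroitin. It had 4447 and 5681 on the deep arrays, against 2916 and 3972 on the shallow arrays. The deep and shallow arrays did not overlap, and the difference was similar in the pigs, 0.61 in pig 1 and 0.52 in pig 2. The mean log2 difference was 0.56 ± 0.28 (limma, unadjusted p = 0.0757, adjusted p = 0.422), a 1.48-fold higher signal with a 95% interval of 0.950 to 2.30. A dimmer DSE probeset had 158 and 187 on the deep arrays, against 81.9 and 91.9 on the shallow arrays, again apart, with a log2 difference of 0.99 (adjusted p = 0.243). With 1 array left out the difference of the brightest probeset ranged between 0.34 and 0.79.

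The other members of this branch lay lower or were dim. CHSY1, which polymerizes the chondroitin backbone, had 1105 and 857 on the deep arrays, against 1747 and 896 on the shallow arrays. The shallow array of pig 1 was again the highest, and the log2 difference of -0.36 ± 0.28 (adjusted p = 0.628) was 0.12 without it. CHST14 adds sulfate to the galactosamine next to iduronic acid, acting after DSE, and was added to the named genes after its values were seen. It had 370 and 351 on the deep arrays, against 397 and 446 on the shallow arrays, below in both pigs, with a log2 difference of -0.22 ± 0.28 (adjusted p = 0.782). Its second probeset was also lower on both deep arrays (-0.28). CHST15, which adds a further sulfate to galactosamine, read 31.0 and 30.7 on the deep arrays, against 24.2 and 11.5 on the shallow arrays; it was not tested, and on the deep array of pig 2 and the shallow array of pig 2 it was below an absent-transcript control.

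Of 2 tested heparan sulfate enzymes, neither passed the test, and the sign of each turned when 1 array was left out. EXT1, a subunit of the polymerase of the chain, had 907 and 633 on the deep arrays, against 1027 and 765 on the shallow arrays. It was lower in deep within each pig, while the depths overlapped because pig 2 was below pig 1 at both. The log2 difference was -0.23 ± 0.26 (limma, adjusted p = 0.768), with a 95% interval of the fold from 0.560 to 1.31, and it was 0.03 with the deep array of pig 2 left out and -0.01 with the shallow array of pig 1 left out. The second EXT1 probeset had both deep arrays below both shallow ones (-0.35, adjusted p = 0.653). HS2ST1, which sulfates the uronic acid, had 228 and 177 on the deep arrays, against 342 and 192 on the shallow arrays (log2 difference -0.35 ± 0.31, adjusted p = 0.676; 0.07 without the shallow array of pig 1). Its next probeset past the filter gave 0.09, with overlap. HS3ST3A1, which adds a rare sulfate to glucosamine, read 1.67 and 14.1 on the deep arrays, against 1.13 and 0.852 on the shallow arrays, below the absent-transcript controls on all 4, so no level or direction is given for it.

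CHST10, the sulfotransferase that completes the HNK-1 epitope on glycoproteins and glycolipids, was lower on both deep arrays. It had 109 and 98.7 on the deep arrays, against 226 and 137 on the shallow arrays. Both deep values lay close together and under both shallow values, of which that of pig 1 was far the higher. The log2 difference was -0.76 ± 0.34 (limma, unadjusted p = 0.0554, adjusted p = 0.376), in fold a ratio of 0.590 with a 95% interval of 0.342 to 1.02. Without the shallow array of pig 1 it was -0.40 and without that of pig 2 -1.12.

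**Figure D4:**
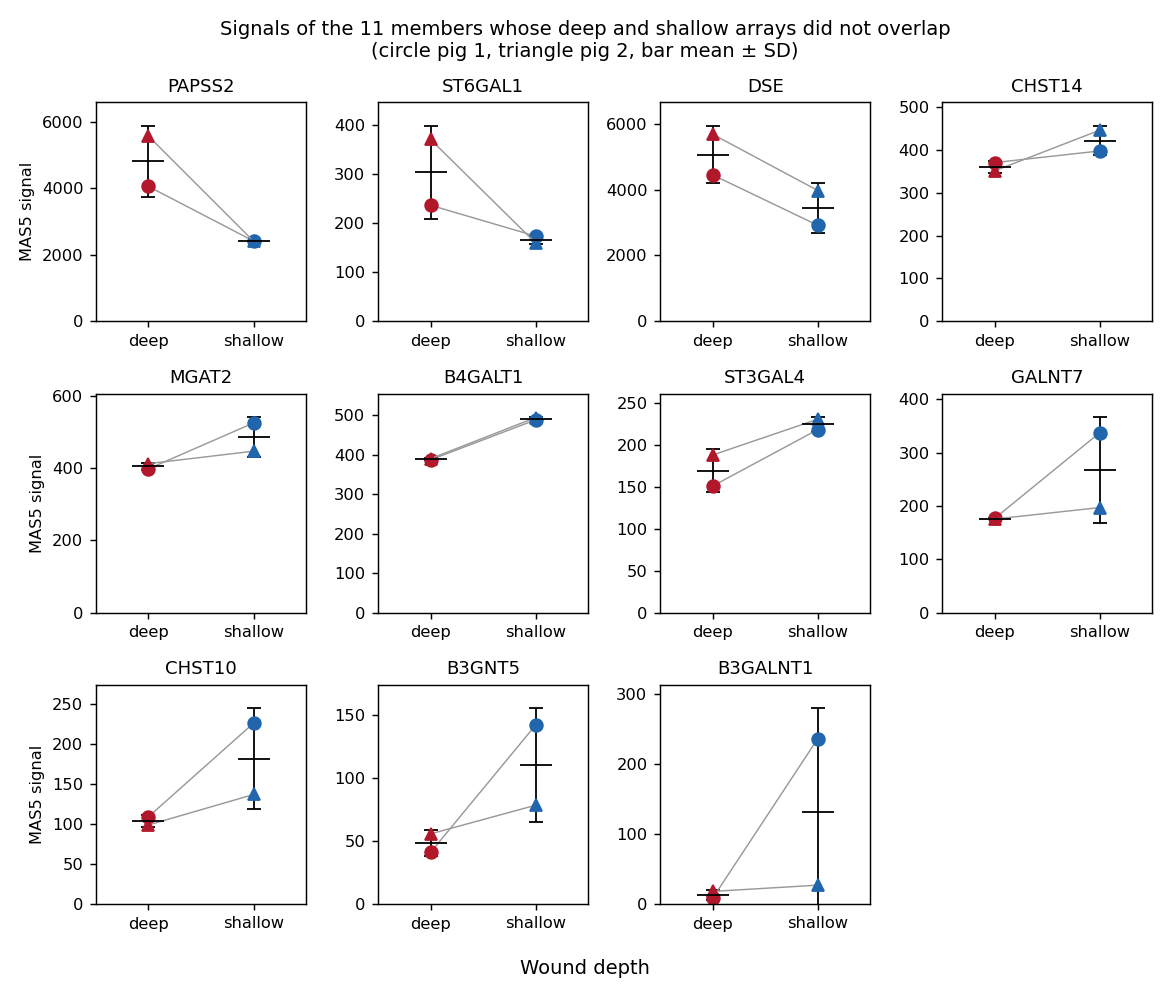
MAS5 signal (intensity units, axes from 0) on the deep and shallow arrays for the 11 members whose depths did not overlap; circles are pig 1, triangles pig 2, grey lines join arrays of the same pig, and bars give the mean with the SD of 2 arrays. PAPSS2, ST6GAL1 and DSE were higher on both deep arrays and the other 8 lower, B3GALNT1 with deep signals below background. For GALNT7, CHST10, B3GNT5 and B3GALNT1 the shallow array of pig 1 stands well above that of pig 2.

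Enzymes that start mucin-type O-glycans by adding N-acetylgalactosamine to serine or threonine numbered 3. GALNT7, which prefers peptides that already carry this sugar, had 177 and 175 on the deep arrays, against 338 and 197 on the shallow arrays. The deep arrays were almost equal and lay under both shallow arrays; the log2 difference of -0.55 ± 0.33 (limma, adjusted p = 0.508) was -0.16 without the shallow array of pig 1. GALNT11 had 659 and 496 on the deep arrays, against 614 and 670 on the shallow arrays, with opposite signs in the pigs (-0.17 ± 0.28, adjusted p = 0.841). Its second probeset had both deep arrays below both shallow ones (-0.44, limma, adjusted p = 0.581). GALNT10 had 190 and 135 on the deep arrays, against 256 and 152 on the shallow arrays (-0.30 ± 0.31, adjusted p = 0.730). The second GALNT10 probeset went the other way, by 0.27, so its direction depends on the probeset, and without the shallow array of pig 1 the brightest gave 0.07.

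For N-glycan branching the differences were small. MGAT2, which starts the second antenna of complex N-glycans, had 398 and 412 on the deep arrays, against 525 and 447 on the shallow arrays. Both deep arrays were lower, by a log2 difference of -0.26 ± 0.28 (limma, adjusted p = 0.742; -0.14 without the shallow array of pig 1). MGAT4B, which adds a further branch, had 739 and 588 on the deep arrays, against 636 and 617 on the shallow arrays, with opposite signs in the pigs (0.07 ± 0.27, adjusted p = 0.939). MGAT1, the gateway from high-mannose to complex chains, and MGAT5, which makes the branch that binds galectins best, were added after their values were seen. MGAT1 had 324 and 398 on the deep arrays, against 405 and 292 on the shallow arrays (log2 difference 0.06, adjusted p = 0.957), with the pigs opposed. MGAT5 was dimmer, at 43.3 and 31.6 on the deep arrays, against 33.6 and 42.4 on the shallow arrays, and also opposed (-0.03, adjusted p = 0.987). MGAT4C was dim, with 3.25 and 2.71 on the deep arrays, below their controls, against 10.8 and 16.2 on the shallow arrays, of which the first was below its control too.

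The galactosyltransferases that extend N-acetyllactosamine and glycolipid chains did not move together. B4GALT1, the main enzyme for galactose on N-glycans, had 387 and 390 on the deep arrays, against 488 and 494 on the shallow arrays. It was the steadiest of the members: replicates differed by a few units, and the log2 difference was -0.34 in each pig (-0.34 ± 0.27, limma, adjusted p = 0.644) and between -0.35 and -0.33 with any 1 array left out. The SE comes from a spread shared with other probesets, which is larger than that of B4GALT1 itself. B4GALT4, which also acts on glycolipids and sulfated sugars, went the other way, with 1071 and 1571 on the deep arrays, against 791 and 1082 on the shallow arrays. It was higher in deep within each pig (0.44 and 0.54), although the deep array of pig 1 lay just under the shallow array of pig 2, and the mean log2 difference was 0.49 ± 0.26 (adjusted p = 0.463). Leaving out the deep array of pig 2 gave 0.21, leaving out that of pig 1 gave 0.76, and leaving out the shallow array of pig 1 gave 0.26.

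B4GALT5, which makes lactosylceramide, the base of most glycosphingolipids, had 554 and 517 on the deep arrays, against 606 and 366 on the shallow arrays, with opposite signs in the pigs (0.19 ± 0.29, limma, adjusted p = 0.826; 0.55 when the shallow array of pig 1 was left out). Its 3 tested probesets gave differences between 0.08 and 0.42. B4GALT3, added after its values were seen, had 183 and 253 on the deep arrays, against 223 and 147 on the shallow arrays, with opposite signs in the pigs (0.25, adjusted p = 0.808; -0.05 when the shallow array of pig 2 was left out and 0.55 when that of pig 1 was). Its dimmer probeset was higher on both deep arrays (0.69, adjusted p = 0.607).

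The glycolipid enzymes B3GNT5 and B3GALNT1 both read highest on the shallow array of pig 1, and B3GNT5 was lower on both deep arrays. B3GNT5 starts the lacto-series by adding N-acetylglucosamine to lactosylceramide. It had 40.8 and 55.5 on the deep arrays, against 142 and 78.3 on the shallow arrays, with no overlap. The log2 difference was -1.15 ± 0.44 (limma, unadjusted p = 0.0317, adjusted p = 0.304); it was -1.80 in pig 1 and -0.49 in pig 2, and -0.72 without the shallow array of pig 1. B3GALNT1 makes globoside. It had 8.07 and 17.8 on the deep arrays, both below the absent-transcript controls, against 236 and 26.7 on the shallow arrays.

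For B3GALNT1 the shallow signal of pig 1 was 8.84 times the next highest array, and it passed the brightness filter through that array. Limma on the measured signals gave an adjusted p of 0.234, but the deep ones were below background, so it is not read as a test of the gene. With the highest absent-transcript control in place of the deep signals, the shallow mean was at least 3.05-fold higher. That bound rests on the shallow array of pig 1: with the shallow array of pig 2 alone it was 1.03-fold. B3GNT3, an enzyme of extended core O-glycans, was under the filter and was not tested, with 7.80 and 24.0 on the deep arrays, below their controls, against 62.3 and 16.9 on the shallow arrays; in pig 2 the deep array was the higher. B3GNT5, B3GALNT1 and B3GNT3 read highest on the shallow array of pig 1. That array was the highest for 43.3% of the tested members and 37.3% of all tested genes. It also had the highest sums of epithelial, endothelial and proliferation markers, the endothelial sum mostly from PECAM1. Any link was not tested. B3GNTL1 had 15.2 and 20.2 on the deep arrays, against 15.0 and 3.04 on the shallow arrays, above the highest control on the shallow array of pig 1 alone.

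Among the sialyltransferases, ST6GAL1 and ST3GAL4 differed in opposite directions. ST6GAL1 caps N-glycans with alpha-2,6 sialic acid. It had 236 and 370 on the deep arrays, against 174 and 159 on the shallow arrays. Both deep arrays were above both shallow arrays, and the deep array of pig 2 was the highest, at 1.57 times the next. Means were 303 ± 94.7 in deep and 166 ± 9.96 in shallow cultures (SD, n = 2 arrays each), and the log2 difference was 0.83 ± 0.33 (limma, unadjusted p = 0.0348, adjusted p = 0.315), or 1.78-fold with a 95% interval of 1.05 to 3.00. Without the deep array of pig 2, the array with the highest actin ratio, the difference was 0.51, and without that of pig 1 it was 1.15. A dimmer ST6GAL1 probeset, under the filter and not tested, had 27.1 and 72.9 on the deep arrays, against 15.8 and 10.5 on the shallow arrays.

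ST3GAL4, which adds alpha-2,3 sialic acid to galactose on N-glycans and glycolipids, had 151 and 188 on the deep arrays, against 219 and 231 on the shallow arrays. All deep values were under all shallow values, and the log2 difference was -0.41 ± 0.31 (limma, adjusted p = 0.603), or between -0.57 and -0.26 when 1 array was left out. ST3GAL1, which caps core 1 O-glycans, had 92.7 and 133 on the deep arrays, against 91.3 and 100.02 on the shallow arrays. The depths overlapped (0.22 ± 0.35, adjusted p = 0.829), and leaving out the deep array of pig 2 gave -0.04. ST6GALNAC4, added after its values were seen, had 117 and 164 on the deep arrays, against 134 and 125 on the shallow arrays, with the pigs opposed (0.10, adjusted p = 0.933). ST3GAL2, ST3GAL3 and ST6GALNAC5 read at most 17.9 on any array and are given no direction.

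The 2 tested fucosyltransferases, FUT8 and FUT1, each differed in opposite directions in the pigs. FUT8, which adds the core fucose of N-glycans, had 221 and 331 on the deep arrays, against 336 and 246 on the shallow arrays. The difference was -0.61 in pig 1 and 0.43 in pig 2, and it averaged -0.09 ± 0.34 (limma, adjusted p = 0.941), with a 95% interval of the fold from 0.544 to 1.62; leaving out the shallow array of pig 1 gave 0.13. FUT1, which makes the H antigen, had 44.4 and 63.6 on the deep arrays, against 48.4 and 57.1 on the shallow arrays (0.01 ± 0.41, adjusted p = 0.992; -0.10 when the shallow array of pig 1 was left out). FUT2, its epithelial and secretory counterpart, had 9.52 and 2.07 on the deep arrays, against 11.3 on the shallow array of pig 1 and a higher value on that of pig 2; it was below the highest absent-transcript control on 3 of 4 arrays and was not tested.

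**Figure D5:**
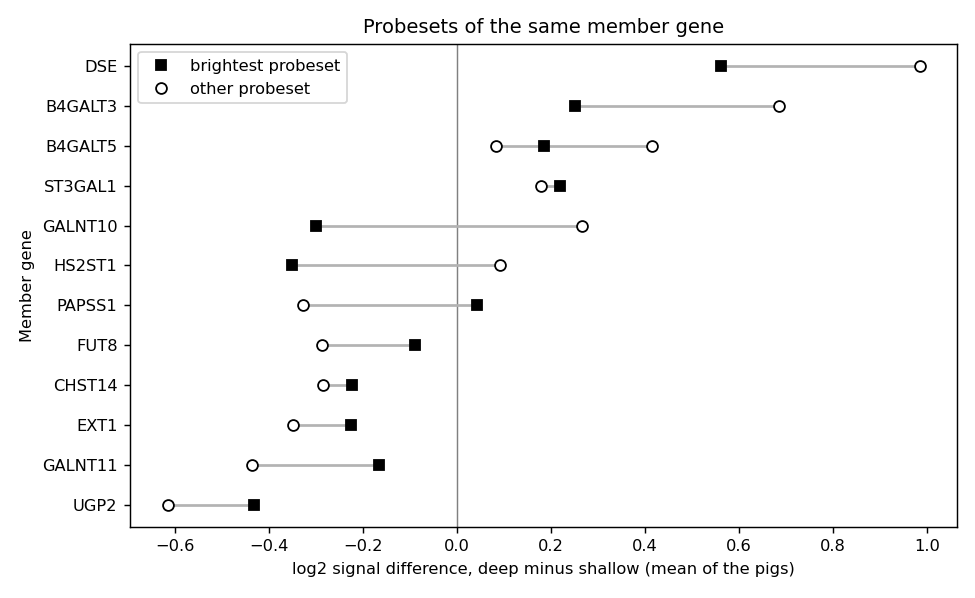
Mean deep minus shallow log2 difference for each tested probeset of the 12 members with more than 1; black squares are the brightest probeset and open circles the others, joined by a grey line. The probesets lie on the same side of 0 for 9 genes and on opposite sides for GALNT10, HS2ST1 and PAPSS1.

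Different probesets of a member give a separate reading on the same arrays, though not a separate sample. Of the 12 members with at least 2 tested probesets, 9 had the same sign on all of them. For DSE and CHST14 every tested probeset also had deep and shallow arrays apart in the same direction. GALNT10, HS2ST1 and PAPSS1 had probesets of opposite sign, so for these 3 genes the direction depended on the probeset. The brightest PAPSS1 probeset gave 0.04 and the dimmer one -0.33.

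Other genes of the pathway gave a wider picture around the members. A list of 33 further genes for transport, hexosamine supply and breakdown of the chains had 18 with a probeset and 17 tested, and 0 passed the adjusted test, with a median log2 difference of 0.22. Both deep arrays were above both shallow arrays for 8 of the 17 and below for 4, with backgrounds of 23.7% and 28.4% of all tested genes. HEXA, a lysosomal hexosaminidase, had 1726 ± 88.6 in deep and 1005 ± 171 in shallow cultures (log2 difference 0.79 ± 0.27, limma, adjusted p = 0.245). GALNS, which removes sulfate from chondroitin and keratan sulfate in lysosomes, differed by 0.63 ± 0.29 (adjusted p = 0.393). The heparan sulfate cleaving enzyme HPSE had 108 and 90.6 on the deep arrays, against 297 and 108 on the shallow arrays (-0.86 ± 0.39, adjusted p = 0.386), another gene whose highest signal was on the shallow array of pig 1.

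Core proteins carry the chains. Among 8 tested core proteins of a list of 23, 7 were brighter on both deep arrays than on either shallow array (background 23.7%), 1 passed the adjusted test, and the median log2 difference was 1.00, against -0.06 for the 30 enzymes. The gene that passed was PRELP, of the leucine-rich proteoglycan family, and whether its protein carried chains in these cultures was not measured. PRELP had 2406 ± 227 in deep, against 684 ± 215 in shallow cultures (SD, n = 2 arrays each). The log2 difference was 1.85 ± 0.27 (SE, limma, adjusted p = 0.0469). No probeset on the array passed without the pig as block, or without the filter, so that call is lost in both. In these fits 1885 and 2246 probesets had an unadjusted p under 0.05 (limma). DCN and LUM belong to both this list and the fibroblast markers. VCAN, the large chondroitin sulfate proteoglycan versican, had 235 and 247 on the deep arrays, against 86.8 and 139 on the shallow arrays (1.13 ± 0.33, adjusted p = 0.191). BGN, biglycan, had 691 and 1735 on the deep arrays, against 571 and 254 on the shallow arrays (1.52 ± 0.52, adjusted p = 0.247), with a difference of 0.28 in pig 1 and 2.77 in pig 2. These lists are described by their counts, and the difference between core proteins and enzymes was not tested.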

How the data were processed

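The authors hybridized labelled RNA of 4 cultures to a porcine Affymetrix array. The deposited signal intensities are linear and came from MAS5 in GCOS 1.0, as the submitters' processing notes name them; the scaling target is not given in the sources used here. Every array had the same mean, 250.1, after trimming 2% at each end. Detection calls were not used here, so 23 control probesets for absent transcripts (highest signal 13.6 to 30.9 per array) served as background. Arrays have no read depth, so precision is limited by their number.

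After 124 control probesets were left out, signals under 1 were set to 1 and taken to log2, and probesets from the 40th percentile of mean log2 signal (27.1) upward were kept, 14399 of 23999. Names came from the platform annotation (1 symbol for 10069 probesets, several for 198, none for 13732). Depths were compared by limma 3.58.1 (lmFit, then eBayes with trend) under R 4.3.3, with a block for the pig and Benjamini-Hochberg adjustment over all 14399. Residual degrees of freedom were 1, and moderation added 6.88. Titles give each culture's partner by a number, read here as the order in which the samples are listed, which the 4 titles bear out among themselves; the correlation of same-pig deviations was -0.01. With 2 cultures per depth and the block, p-values rest on how far the differences of the 2 pigs disagree. Most of their weight is on a spread shared with other probesets. The fit was tested on simulated data, where it missed most changes of 2-fold. The spread and the share of changed probesets there were chosen, not estimated from these arrays. That miss rate is therefore not read as the rate for the members. A member without a call may still differ between depths.

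The members and lists were chosen with earlier results of these data known. Named were any members past the threshold, up to 12 higher and 12 lower with the same sign in both pigs (6 and 12 qualified), and the 2 brightest of each role; the rest were added after their values were seen. Alternatives were no block, no filter or one at the 60th percentile, a floor of 16, quantile normalization, median centring, the mean over a gene's probesets, and leaving out each array. Sequences were not used here.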

Additional observations from a re-analysis of the deposited data

How the results depend on the processing

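Under every alternative that kept all 4 arrays the number of called members was 0 (limma). Without the pig as block, the paired design's other fit, it was 0 as well, at a smallest adjusted p of 0.259 among members, and the median log2 difference stayed at -0.06; the block changed no call of a member. With 1 array left out there is no block, and the lone array of a depth is assumed to vary like the others. The number of called members then ranged from 0 to 2; the 2, without the shallow array of pig 2, were B3GNT5 (-1.58, adjusted p = 0.0447) and B3GALNT1, both set against the shallow array of pig 1 alone; B3GALNT1 passed the filter through that array and its deep signals were below background, so its call there is not read as a difference. That fit called 1597 of 14399 probesets. The median difference of the members ranged from -0.16 to 0.063 without 1 array, against 0.01 for all 39 members without the filter, -0.09 with the filter at the 60th percentile and 0.01 with median centring. Median centring moved the median of all probesets past the filter to 0.05, against -0.02 as deposited. The count of probesets called over the whole array was 49, and 0 without the block (1885 at an unadjusted p under 0.05), 0 without the filter (2246), 217 with the filter at the 60th percentile, 70 with a floor of 16, 96 with quantile normalization and 5 with median centring.

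The sign of 18 of the 30 tested members turned under at least 1 alternative, and the cause was not tested. PAPSS1 was -0.046 and FUT8 0.0051 with quantile normalization, PAPSS1 was -0.14 with the mean over its probesets, and MGAT5 was 0.042 with median centring. With 1 array left out the ranges that crossed 0 were -0.13 to 0.22 for PAPSS1, -0.93 to 0.060 for UGP2, -0.064 to 0.53 for B4GALT7, -0.087 to 0.13 for B3GAT3, -0.84 to 0.12 for CHSY1, -0.48 to 0.034 for EXT1, -0.77 to 0.066 for HS2ST1, -0.67 to 0.073 for GALNT10, -0.37 to 0.039 for GALNT11, -0.092 to 0.24 for MGAT4B, -0.18 to 0.55 for B4GALT5, -0.043 to 0.48 for ST3GAL1, -0.38 to 0.20 for FUT8, -0.24 to 0.27 for FUT1, -0.17 to 0.30 for MGAT1, -0.26 to 0.20 for MGAT5, -0.048 to 0.55 for B4GALT3 and -0.14 to 0.34 for ST6GALNAC4. PAPSS2, DSE, ST6GAL1, B4GALT4, B4GALT1, CHST10, CHST14, B3GNT5, B3GALNT1, GALNT7, MGAT2 and ST3GAL4 kept their sign in all alternatives in which they were tested. For B3GALNT1 that sign is not read as a direction, because both deep signals were below background. The counts of members apart without the shallow array of pig 1, the counts without B3GALNT1 and its bound with 1 shallow array were chosen after the data were seen.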
